A study of Mus musculus with 18 samples.

Results

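The genes described here encode TNF, the secreted cytokine subunits of the IL-6, IL-12 and IL-10 families, and IL-15 with its high-affinity receptor chain. They are 10 genes (Tnf, Il6, Il12b, Il12a, Il23a, Il27, Ebi3, Il10, Il15 and Il15ra), of 13598 genes with a value in the series, and 9 of the 10 had a value. No first or last exon of Il23a was listed in any library, and it is not analysed here. RNA-seq covered peritoneal macrophages of mice on a C57BL/6 background, elicited with thioglycolate for 72 h, in 6 groups of 3 libraries. The genotypes were TLR4-WT, TLR4-K730R and TLR4-K810R, the last pair carrying an arginine in place of the named lysine in the signalling (TIR) domain of TLR4, introduced with CRISPR/Cas9. Macrophages of each genotype were left as control or received LPS at 100 ng/ml, with RNA taken after 6 h. LPS is the bacterial cell wall component that TLR4 senses. Neither the age and sex of the animals nor whether a library came from 1 animal or a pool was given in the sources used here, so p-values measure the spread between these libraries.

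TNF and IL-6 are early inflammatory cytokines that macrophages secrete once TLR4 activates NF-κB. The IL-12 family is built from shared subunits. The p40 chain from Il12b pairs with the p35 chain from Il12a to form IL-12 and with the product of Il23a to form IL-23, while the products of Il27 and Ebi3 together form IL-27. IL-10 restrains inflammatory cytokine production, and IL-15 is shown to lymphocytes on the cell surface bound to the receptor chain from Il15ra.

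The deposited values are FPKM (fragments scaled to transcript length and library size) of transcript events such as first and last exons, not of genes. A gene was given its first-exon FPKM or its last-exon FPKM, each summed, whichever was greater in that library. No read counts are given, so the depth and the counting error are unknown, and a gene listed at 0 may still be expressed. Differences were tested with limma on log2(FPKM + 1) over 9707 genes that reached 1 FPKM in 3 or more of 18 libraries, and a gene was called at a Benjamini-Hochberg adjusted p below 0.01. All 9 listed genes passed that filter. Tnf, Ebi3, Il15 and Il15ra passed with the control libraries alone, whereas Il6, Il12b, Il12a, Il27 and Il10 passed only through LPS libraries. The log2 scale with a pseudocount of 1 understates the change of low genes, and in bulk RNA fewer cells of a type and less RNA per cell cannot be told apart.

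The sequences before the transcription start are shown for the 6 of the 10 genes with an entry in the RefSeq promoter set of GRCm38.p6, because their levels were higher in every LPS library than in the control libraries of the same genotype. These genes have 8 entries, of which 7 are printed. The outer Il12a start (chr3:68690394-68690643), whose exon was listed in 1 library, is left out and held none of the motifs. Each line gives the 250 bases upstream of the annotated start, 5′ to 3′ on the strand of the gene. Capitals mark matches, on either strand, to the NF-κB consensus, to the TATA box TATAAA or to the AP-1 motif TGANTCA. They also mark the letters TTGNNNNAA and the interferon response motif (GAAA repeated after a gap of 2 bases). The letters TTGNNNNAA are not assigned to a factor here.
Tnf (chr17:35202008-35202257, minus strand): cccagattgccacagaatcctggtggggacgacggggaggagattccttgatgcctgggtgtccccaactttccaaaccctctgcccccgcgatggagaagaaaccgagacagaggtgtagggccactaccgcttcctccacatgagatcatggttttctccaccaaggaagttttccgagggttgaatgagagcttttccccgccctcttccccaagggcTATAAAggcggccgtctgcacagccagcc
Il6 (chr5:30012864-30013113, plus strand): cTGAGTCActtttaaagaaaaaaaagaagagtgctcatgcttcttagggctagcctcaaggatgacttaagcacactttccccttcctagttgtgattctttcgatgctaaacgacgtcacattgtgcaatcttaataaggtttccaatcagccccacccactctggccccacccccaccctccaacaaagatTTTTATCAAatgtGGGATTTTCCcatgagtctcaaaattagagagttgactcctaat
Il12b (chr11:44399813-44400062, plus strand): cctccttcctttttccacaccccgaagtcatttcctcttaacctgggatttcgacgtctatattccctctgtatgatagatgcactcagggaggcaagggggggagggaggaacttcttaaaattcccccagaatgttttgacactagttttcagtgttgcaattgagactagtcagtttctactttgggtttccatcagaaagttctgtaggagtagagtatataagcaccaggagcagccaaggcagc
Il12a, inner start (chr3:68691174-68691423, plus strand): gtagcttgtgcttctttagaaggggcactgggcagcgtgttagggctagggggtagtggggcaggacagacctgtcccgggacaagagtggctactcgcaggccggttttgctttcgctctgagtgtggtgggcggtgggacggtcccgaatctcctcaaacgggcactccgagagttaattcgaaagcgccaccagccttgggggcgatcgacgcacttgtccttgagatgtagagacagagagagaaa
Ebi3 (chr17:55952373-55952622, plus strand): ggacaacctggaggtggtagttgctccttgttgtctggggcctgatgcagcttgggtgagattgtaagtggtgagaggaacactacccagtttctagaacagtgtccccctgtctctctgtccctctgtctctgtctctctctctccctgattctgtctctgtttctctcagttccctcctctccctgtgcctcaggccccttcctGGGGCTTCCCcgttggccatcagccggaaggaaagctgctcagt
Il15ra, outer start (chr2:11705043-11705292, plus strand): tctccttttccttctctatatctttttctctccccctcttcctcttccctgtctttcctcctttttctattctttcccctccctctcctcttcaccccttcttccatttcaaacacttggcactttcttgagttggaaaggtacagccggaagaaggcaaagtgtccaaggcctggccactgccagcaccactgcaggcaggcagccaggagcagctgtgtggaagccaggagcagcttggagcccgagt
Il15ra, inner start (chr2:11705462-11705711, plus strand): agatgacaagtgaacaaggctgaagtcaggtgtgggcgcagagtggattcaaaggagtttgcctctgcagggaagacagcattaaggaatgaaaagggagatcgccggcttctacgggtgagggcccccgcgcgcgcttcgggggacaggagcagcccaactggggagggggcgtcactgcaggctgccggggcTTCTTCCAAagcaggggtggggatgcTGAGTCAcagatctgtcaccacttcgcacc
The NF-κB consensus was matched in Il6 and in Ebi3, in both from 44 to 35 bases before the start, and it occurred in 3.90% of all 32851 promoters of this length. Il6 also held an AP-1 match (in 6.75% of all promoters) and a TTGNNNNAA match (in 31.5%). The inner Il15ra start held a match to each of these patterns. Tnf held TATAAA from 29 to 24 bases before its start, which 12.4% of promoters do. The windows of Il12b, of the inner Il12a start and of the outer Il15ra start held no match to any of these patterns. The interferon response motif was matched in none of the 7 windows (2.98% of all promoters). A match is a description of the sequence and not a measured binding site. A missing match does not show that a site is absent, since sites that differ from these letters were not searched.

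Macrophage identity was checked first. Of 7 macrophage genes, 6 were listed in every library, among them Adgre1 (148 to 271 FPKM), Csf1r (277 to 538) and Cd68 (387 to 771), and Itgam had no listed event. Fcgr1 (26.7 to 411.7 FPKM) and Mertk (5.03 to 32.15) ranged more widely. Defining genes of T and NK cells (up to 0.576 FPKM) and of B cells (up to 1.89) were low. Of 6 neutrophil genes, Ly6g and Cxcr2 reached at most 0.644 FPKM, and S100a9 and Retnlg at most 2.23 and 2.67. The neutrophil list, carried by S100a8 and Csf3r, which macrophages can also express, summed to 61.1 to 83.3 FPKM in control and 204 to 281 FPKM in LPS libraries, and the macrophage list to 11630 to 14790 and 7289 to 10060 FPKM. The dendritic cell genes Flt3, Xcr1 and Siglech had no listed event, but the dendritic cell list summed to 3.03 to 5.76 FPKM in LPS libraries and to at most 1.96 in control libraries, with Ccr7 reaching 4.95. Genes of mesothelium and fibroblasts summed to 53.4 to 61.5 FPKM in LPS-treated TLR4-K810R libraries, 24.9 to 25.6 in TLR4-K730R and 22.4 to 71.2 in TLR4-WT. Those of intestinal epithelium summed to at most 12.8 FPKM in LPS libraries, and the part of these lists in the results below was not tested. Tlr4 fell after LPS in each genotype, by 1.03 on the log2 scale for TLR4-WT, 1.0 for TLR4-K730R and 1.23 for TLR4-K810R (adjusted p at most 3.5e-05, limma). Tlr4 was not called between genotypes, and its level does not check a point mutation.

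**Figure D1:**
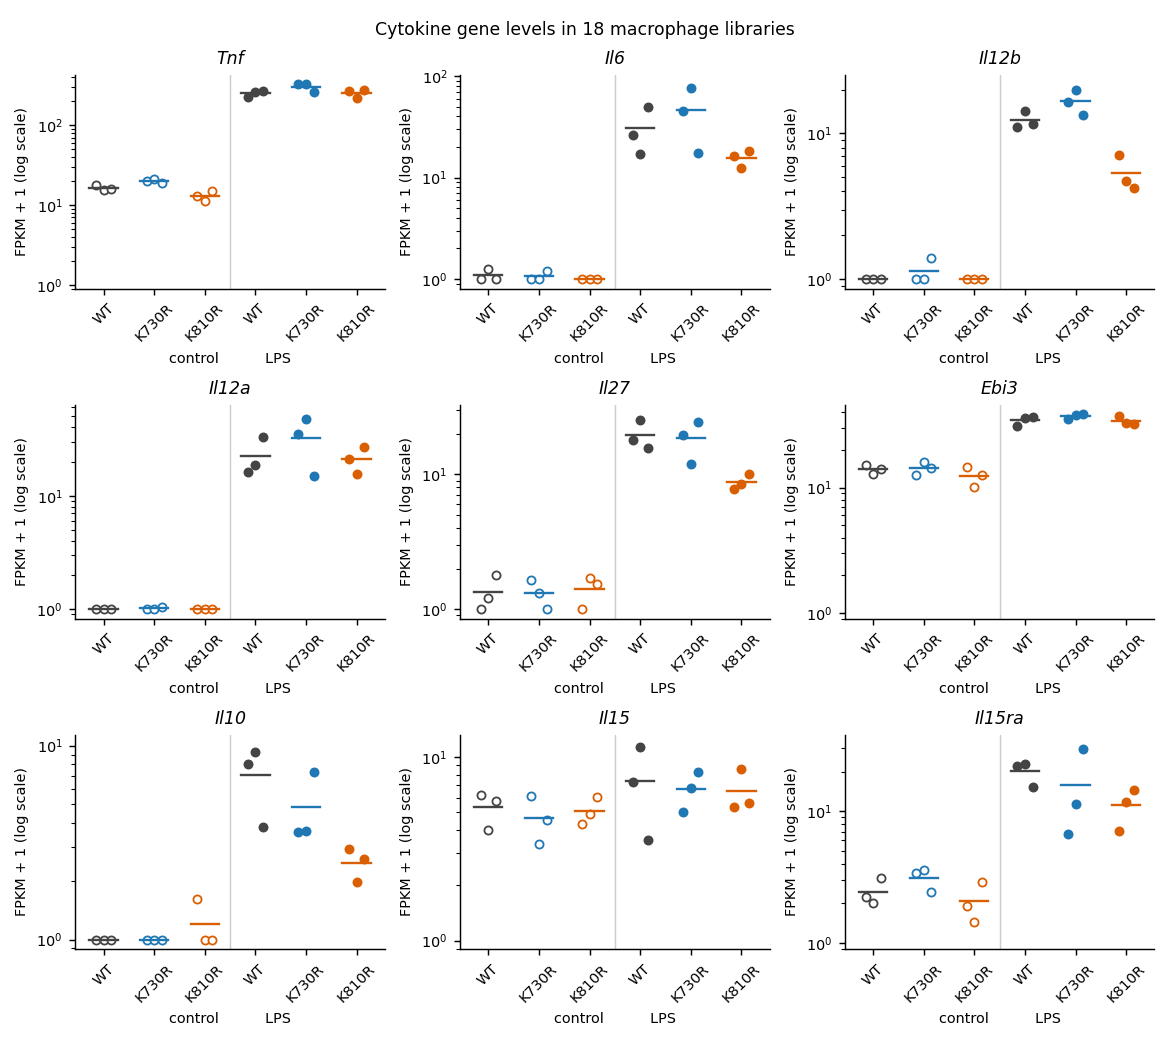
FPKM + 1 on a log axis for the 9 genes in each of the 18 libraries, open points control and filled points LPS, with lines at the group means. LPS libraries lie above all control libraries of the same genotype for every gene but Il15, and the filled TLR4-K810R points of Il12b, Il27, Il10 and Il15ra lie below those of TLR4-WT.

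Which of these genes responded to LPS was asked first within each genotype. Il6, Il12b, Il12a, Il27 and Il10 entered the test only through LPS libraries, so the filter itself favoured a rise with LPS. For them the levels of each library are given with no test of LPS against control. Of the 4 genes that entered with control libraries alone, Tnf, Ebi3 and Il15ra were called higher in every genotype and Il15 in none. The share of all tested genes called higher was 10.4% for TLR4-WT, 9.32% for TLR4-K730R and 9.08% for TLR4-K810R, and the share called lower was 23.9%, 26.5% and 19.7%. All LPS libraries of Tnf, Ebi3 and Il15ra lay above all control libraries of the same genotype, as for 15.5%, 13.8% and 14.6% of all genes. Over all tested genes the median difference with LPS was -0.28, -0.36 and -0.26 on the log2 scale for the same order of genotypes. Median-of-ratios scaling between libraries moved these medians to -0.01, -0.04 and -0.03 and the split of called genes from 1012 higher and 2316 lower to 1496 and 1370 for TLR4-WT. For TLR4-K730R the split went from 905 and 2568 to 1497 and 1300, and for TLR4-K810R from 881 and 1916 to 1196 and 1126, so that in all genotypes more genes were called lower without this scaling and more were called higher with it. Changes are relative to that shift.

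Of the 6 macrophage genes tested, 1 was called higher and 4 lower after LPS in TLR4-WT and likewise in TLR4-K730R. In TLR4-K810R 2 were called higher and 1 lower. None was called in any comparison between genotypes or in either interaction. Markers of other cell types also moved with LPS. S100a8 of the neutrophil list and Ccr7 of the dendritic cell list were called higher in every genotype. In TLR4-WT Dcn was called higher (1.77, adjusted p = 0.000651, limma) and Retnlg lower (-1.58, adjusted p = 7.46e-05), and the mast cell list summed to 4.70 to 5.25 FPKM in control and 1.47 to 4.61 FPKM after LPS, without overlap and with no gene called. The B cell gene Cd79b was called lower in TLR4-K730R (-0.72, adjusted p = 0.00723) and TLR4-K810R (-1.21, adjusted p = 0.000143). In TLR4-K810R the intestinal genes Fabp1 (-2.18, adjusted p = 0.00379) and Epcam (-1.02, adjusted p = 0.00626) were called lower, where their list summed to 10.8 to 50.8 FPKM in control and 0.127 to 5.14 FPKM after LPS. The part of these genes in the rises of Tnf, Ebi3 and Il15ra was not tested.

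Tnf was the most abundant of these genes in the means of all 6 groups. In control TLR4-WT macrophages it was at 16.6, 14.2 and 14.7 FPKM, and after LPS at 227, 258 and 268 FPKM. TLR4-K730R control libraries held 18.9, 20.2 and 17.7 FPKM and LPS libraries 323, 330 and 259 FPKM. For TLR4-K810R the values were 11.8, 10.3 and 14 FPKM in control and 264, 217 and 276 FPKM after LPS. The control and LPS ranges were far apart in every genotype, and the LPS ranges of TLR4-WT overlapped those of both mutants. The rise on the log2 scale was 3.96 ± 0.13 (standard error) for TLR4-WT, 3.93 ± 0.13 for TLR4-K730R and 4.28 ± 0.13 for TLR4-K810R (adjusted p at most 5.17e-12, limma).

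Il6, whose product drives the acute-phase response, was listed at 0 in 7 of the 9 control libraries and at 0.265 and 0.190 FPKM in the other two. After LPS it reached 25.3, 16 and 48.3 FPKM in TLR4-WT. The LPS libraries of TLR4-K730R held 43.9, 74.9 and 16.4 FPKM and those of TLR4-K810R 15.4, 11.5 and 17.3 FPKM. The highest library was more than 3 times the lowest within TLR4-WT and within TLR4-K730R, while 2 of the 3 TLR4-K810R libraries lay below every library of the other genotypes. No fold is given against control libraries listed at 0.

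Il12b, which encodes the p40 chain shared by IL-12 and IL-23, was listed at 0 in 8 of 9 control libraries and at 0.385 FPKM in the other, a TLR4-K730R library. LPS libraries held 10.1, 13.2 and 10.7 FPKM in TLR4-WT and 15.6, 18.9 and 12.4 FPKM in TLR4-K730R. In TLR4-K810R they held 6.17, 3.74 and 3.21 FPKM, all below the lowest value of either other genotype.

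Il12a, the p35 chain, was listed at 0 in 8 of 9 control libraries and at 0.05 FPKM in 1 TLR4-K730R library. After LPS it was at 15, 17.8 and 31.9 FPKM in TLR4-WT, 34.1, 46.5 and 13.9 FPKM in TLR4-K730R, and 20.3, 14.5 and 25.7 FPKM in TLR4-K810R. All 3 LPS groups overlapped. The FPKM ratio of Il12b to Il12a, the chains of IL-12, was 0.672, 0.745 and 0.334 in the TLR4-WT LPS libraries, 0.456, 0.406 and 0.893 in TLR4-K730R, compared with 0.304, 0.259 and 0.125 in TLR4-K810R. All 3 TLR4-K810R ratios were below all TLR4-WT ratios (two-sided exact permutation p = 0.1, the lowest value possible with 3 libraries in each group). Among the 22 such comparisons of ratios and exon shares made here, the adjusted p of this and of every other at 0.1 was 0.244.

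Il27, the p28 chain of IL-27, was at 0 to 0.783 FPKM in the 9 control libraries. LPS brought it to 17, 24.4 and 14.6 FPKM in TLR4-WT and 18.5, 11 and 23.5 FPKM in TLR4-K730R. In TLR4-K810R it reached 6.85, 7.51 and 9.07 FPKM, so that every TLR4-K810R library was below every library of the other genotypes.

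Ebi3, which encodes the partner chain of IL-27, differed from Il27 in that it was present before LPS. Control libraries held 14.1, 11.8 and 13.1 FPKM in TLR4-WT, 11.6, 14.9 and 13.4 in TLR4-K730R, compared with 13.5, 9.17 and 11.5 in TLR4-K810R. LPS libraries held 30.1, 34.7 and 35.8 FPKM in TLR4-WT, 34.6, 37.2 and 38 in TLR4-K730R, compared with 36.4, 31.9 and 31 in TLR4-K810R. The genotypes overlapped with and without LPS. Ebi3 rose by 1.31 ± 0.13 (standard error) on the log2 scale for TLR4-WT, 1.40 ± 0.13 for TLR4-K730R and 1.47 ± 0.13 for TLR4-K810R (adjusted p at most 8.99e-07, limma). The FPKM ratio of Il27 to Ebi3 after LPS was 0.566, 0.703 and 0.409 in TLR4-WT, 0.535, 0.295 and 0.617 in TLR4-K730R, compared with 0.188, 0.235 and 0.292 in TLR4-K810R. TLR4-K810R did not overlap TLR4-WT (exact permutation p = 0.1, two-sided).

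Il10, the anti-inflammatory member, was the least abundant after LPS in the means of all genotypes. It was listed at 0 in 8 control libraries and at 0.625 FPKM in TLR4-K810R control replicate 1. LPS libraries held 7.07, 8.24 and 2.8 FPKM in TLR4-WT, 2.58, 2.61 and 6.28 FPKM in TLR4-K730R, and 1.93, 0.969 and 1.59 FPKM in TLR4-K810R. The TLR4-K810R libraries were below all others, and TLR4-WT and TLR4-K730R overlapped. As a percentage of the Tnf FPKM of the same library, Il10 was at 3.11, 3.19 and 1.04 in TLR4-WT, 0.799, 0.792 and 2.43 in TLR4-K730R, compared with 0.730, 0.447 and 0.575 in TLR4-K810R, with no overlap between TLR4-K810R and TLR4-WT (exact permutation p = 0.1, two-sided). The same ratio of Il6 to Tnf overlapped between each mutant and TLR4-WT (exact permutation p = 0.7 for TLR4-K730R and 0.2 for TLR4-K810R).

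Il15 did not pass the test in any genotype. It was at 5.23, 3.0 and 4.78 FPKM in control and 6.26, 10.3 and 2.54 FPKM in LPS-treated TLR4-WT macrophages. In TLR4-K730R the values were 5.09, 2.36 and 3.52 against 3.99, 5.75 and 7.26 FPKM, and in TLR4-K810R 3.33, 3.89 and 5.08 against 4.35, 7.58 and 4.61 FPKM. Control and LPS overlapped in each genotype. The log2 differences were 0.34 (95% interval -0.41 to 1.08), 0.53 (-0.22 to 1.28) and 0.33 (-0.42 to 1.08), with adjusted p of 0.459, 0.227 and 0.476 (limma).

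Il15ra, which encodes the chain that presents IL-15, rose. TLR4-WT libraries went from 1.23, 1.02 and 2.08 FPKM to 21.1, 21.7 and 14.4 FPKM. TLR4-K730R libraries held 2.4, 2.55 and 1.44 FPKM in control and 5.69, 10.3 and 28.7 FPKM after LPS, a wide spread. TLR4-K810R libraries held 0.921, 0.433 and 1.92 against 6.04, 10.8 and 13.4 FPKM. LPS was above control in every genotype, and the TLR4-K810R LPS libraries were all below those of TLR4-WT. The log2 rise was 3.04 ± 0.43 (standard error), 2.08 ± 0.43 and 2.41 ± 0.43 (adjusted p = 2.64e-05, 0.000832 and 0.000295, limma). With only the TLR4-K730R groups in the fit, the adjusted p in that genotype was 0.0152.

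Ordered by mean FPKM after LPS in TLR4-WT, the genes ran from Tnf over Ebi3, Il6, Il12a, Il15ra, Il27, Il12b and Il15 to Il10. Neighbours in this order overlapped in range except Tnf and Ebi3, and Il27 and Il12b. By group means the order in control libraries was Tnf, Ebi3, Il15 and Il15ra, with the others at or near 0, although Tnf and Ebi3 overlapped in TLR4-K810R, and Il15 and Il15ra in TLR4-K730R.

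Whether the mutants differed from TLR4-WT before stimulation was asked in the control libraries. No member was called in TLR4-K730R (0 of 9, with 0.268% of all tested genes called) or in TLR4-K810R (0 of 9, against 1.58%). Unadjusted p values were below 0.05 for 747 and 1366 of all genes, respectively. The control libraries of Tnf did not overlap between genotypes. All TLR4-K730R values were above those of TLR4-WT (log2 difference 0.30 ± 0.13, standard error, adjusted p = 0.606, limma), and all TLR4-K810R values were below them (-0.32 ± 0.13, adjusted p = 0.278). In each comparison Tnf was the 1 member of 9 without overlap in that direction, where 8.91% of all genes lay above TLR4-WT in TLR4-K730R and 6.64% below it in TLR4-K810R. Both comparisons use the same TLR4-WT libraries. Genes of mesothelium and fibroblasts summed to 54.8 to 134.9 FPKM in TLR4-K810R control libraries, 27.3 to 33.3 in TLR4-K730R and 11.04 to 23.01 in TLR4-WT, with Col1a1 and Dcn called higher in TLR4-K810R. The intestinal epithelium list summed to 10.8 to 50.8, 7.01 to 35.7 and 0.118 to 0.594 FPKM in the same order, with Fabp1 called higher in TLR4-K810R. The mast cell list, of which Fcer1a had no listed event, summed to 4.70 to 5.25 FPKM in TLR4-WT, above the 0.494 to 2.58 of TLR4-K730R and the 0.797 to 2.64 of TLR4-K810R, with no gene called. The B cell list summed to 2.30 to 3.66 FPKM in TLR4-WT and 1.46 to 2.28 in TLR4-K730R. The neutrophil list overlapped between each mutant and TLR4-WT, at 61.1 to 83.3 FPKM over the 9 libraries. Of its genes Retnlg was called lower in TLR4-K730R, at 0.0956 against 2.07 FPKM, while the more abundant S100a8 was at 37.9 against 29.0 FPKM and Csf3r at 35.8 against 34.1, neither called. The part of these lists in the Tnf values was not tested.

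After LPS, TLR4-K730R was compared with TLR4-WT. None of the 9 members was called, and no gene of the 9707 was (0%), with 746 at an unadjusted p below 0.05 from limma. Over all genes 1 was called with library weights and 0 to 2 with one library left out. No member separated the libraries of these genotypes in either direction, where 3.32% of all genes lay above and 7.54% below TLR4-WT. Tnf, Il12b, Il12a, Il6 and Ebi3 had higher means in TLR4-K730R, by 0.27, 0.42, 0.44, 0.48 and 0.13 on the log2 scale, and Il10 and Il15ra lower ones, by -0.53 and -0.59 (adjusted p from 0.660 to 0.860, limma). The 95% intervals of these 7 differences all held 0. For Il6 the interval reached from -0.41 to 1.36, so a difference by a factor of 2 in favour of TLR4-K730R was within it, and without TLR4-K730R replicate 2 the difference was -0.0031.

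TLR4-K810R against TLR4-WT after LPS gave 0 of 9 members called, with 13 of all genes called (0.134%) and 2118 at an unadjusted p below 0.05. The count over all genes rested on single libraries and on the setting, since it was 283 without TLR4-WT replicate 3, 1 to 6 without each other library of these groups and 366 with library weights. In 4 of the 9, Il12b, Il27, Il10 and Il15ra, all TLR4-K810R libraries lay below all TLR4-WT libraries, as in 7.89% of all genes. Il12b differed by -1.23 ± 0.20 (standard error, 95% interval -1.66 to -0.80), with an adjusted p of 0.0117, just above the threshold. It was called under several other settings, among them the last-exon sum alone (-1.53, adjusted p = 0.000239), median-of-ratios scaling (adjusted p = 0.00399) and without TLR4-K810R replicate 1 (adjusted p = 0.00623), the library where the first-exon sum of Il12b was 6.17 and the last-exon sum 2.81 FPKM. Il10 differed by -1.42 ± 0.33 (adjusted p = 0.0382), and without TLR4-WT replicate 3, the TLR4-WT library lowest in Il10, by -1.81 (adjusted p = 0.00389), and Il12b was then called too (0.00634), among the 283 genes called in that setting. Il27 differed by -1.14 ± 0.30 (adjusted p = 0.0545), Il15ra by -0.89 ± 0.43 (0.239) and Il6 by -0.85 ± 0.41 (0.247). The neutrophil list summed to 204.5 to 237.2 FPKM in these TLR4-K810R libraries and 253 to 280.9 FPKM in TLR4-WT, without overlap. Its abundant genes averaged 182 against 207 FPKM (S100a8) and 42.5 against 58.1 FPKM (Csf3r), neither called. S100a9, at 1.88 against 0.0732 FPKM, was called higher (1.43, adjusted p = 0.0085, limma), and the part of these genes in the differences was not tested.

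Il6 overlapped between the genotypes, and so did the other 4 members. Tnf differed by 0.00 (95% interval -0.28 to 0.29, adjusted p = 0.998), Ebi3 by -0.02 (-0.30 to 0.27), Il12a by -0.06 (-0.77 to 0.66) and Il15 by -0.06 (-0.81 to 0.69), all from limma. The intervals of Il12a and Il15 leave room for larger differences than those of Tnf and Ebi3. The median of all genes was 0.11 in this comparison and -0.02 with median-of-ratios scaling, under which Tnf differed by -0.15 (adjusted p = 0.525).

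**Figure D2:**
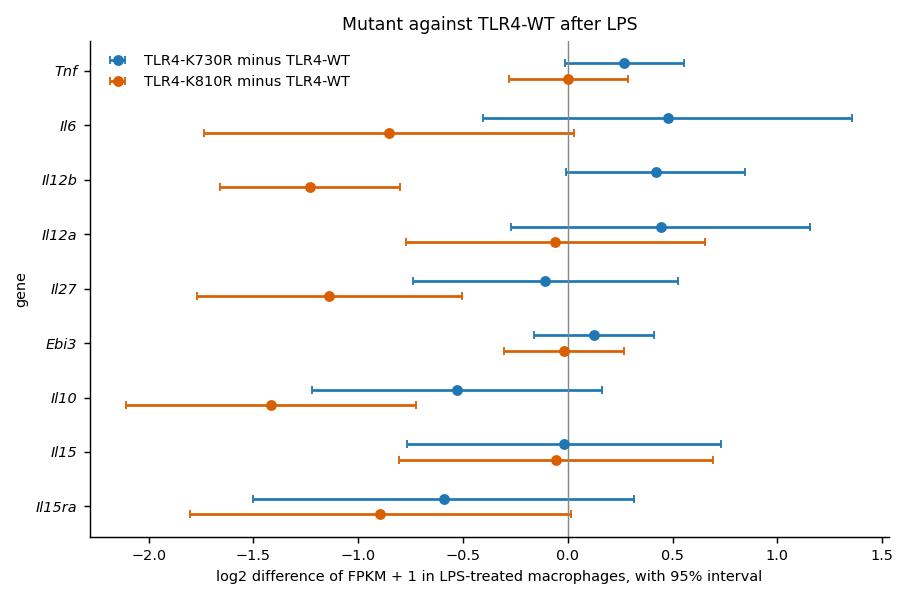
Log2 difference of FPKM + 1 between each mutant and TLR4-WT after LPS (x axis) for the 9 genes (y axis), points with 95% intervals from limma that are not adjusted for the number of genes. The TLR4-K810R intervals of Il12b, Il27 and Il10 lie below 0, and those of Tnf and Ebi3 are centred near 0 and narrow.

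The mutants were also set against each other after LPS. Il12b was called lower in TLR4-K810R than in TLR4-K730R, 1 of 9 members where 0.0309% of all genes were called lower (-1.65 ± 0.20, standard error, adjusted p = 0.00127, limma). The call was lost without TLR4-K730R replicate 2 (adjusted p = 0.0128), without TLR4-K810R replicate 2 (0.0132) or replicate 3 (0.0107), with a pseudocount of 0.1 (0.0646) and with only these groups in the fit (0.0597), while the difference stayed between -1.85 and -1.49 in these settings. Il12b, Il27 and Il10 separated the libraries of the mutants, 3 of 9 members against 4.44% of all genes. The same libraries were separated by the summed FPKM of the neutrophil list (204.5 to 237.2 in TLR4-K810R, 238.3 to 277.9 in TLR4-K730R), of intestinal epithelium (0.127 to 5.14 against 7.85 to 12.8) and of mesothelium and fibroblasts (53.4 to 61.5 against 24.9 to 25.6), with no gene of these lists called, and their part in the differences was not tested. Il6 differed by -1.33 ± 0.41 (adjusted p = 0.104), Il27 by -1.03 ± 0.30 (0.0832), Il10 by -0.89 ± 0.33 (0.158) and Tnf by -0.27 ± 0.13 (0.289). These differences share the TLR4-K810R libraries with the comparison against TLR4-WT.

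Whether the size of the LPS response differed between genotypes was tested as an interaction. No member was called for TLR4-K730R (0.0412% of all genes called) or TLR4-K810R (0.124%), and 681 and 1277 of all genes had an unadjusted p below 0.05. In TLR4-K810R the response of Tnf differed by 0.32 ± 0.19 (standard error, adjusted p = 0.495, limma). Il12b was listed at 0 in all TLR4-WT and TLR4-K810R control libraries, so that its interaction is the same number as its difference after LPS. Il6, Il12a, Il27 and Il10 were at or near 0 in control libraries too, and their interactions are not given as separate results.

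The members did not vary together from library to library. Within LPS-treated TLR4-WT, replicate 3 held the highest Il6 and Il12a and the lowest Il27, Il10, Il15 and Il15ra. Within TLR4-K730R, replicate 3 held the lowest Tnf, Il6, Il12a and Il12b and the highest Il27, Ebi3, Il10, Il15 and Il15ra. In both genotypes the library with the least Il6 thus held the most Il27, Il10, Il15 and Il15ra (replicate 2 of TLR4-WT and replicate 3 of TLR4-K730R). In TLR4-K810R replicate 2 held the least Il6 and the most Il15, but also the least Tnf, Il12a and Il10. This is a description of 9 libraries whose counting error is unknown.

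**Figure D3:**
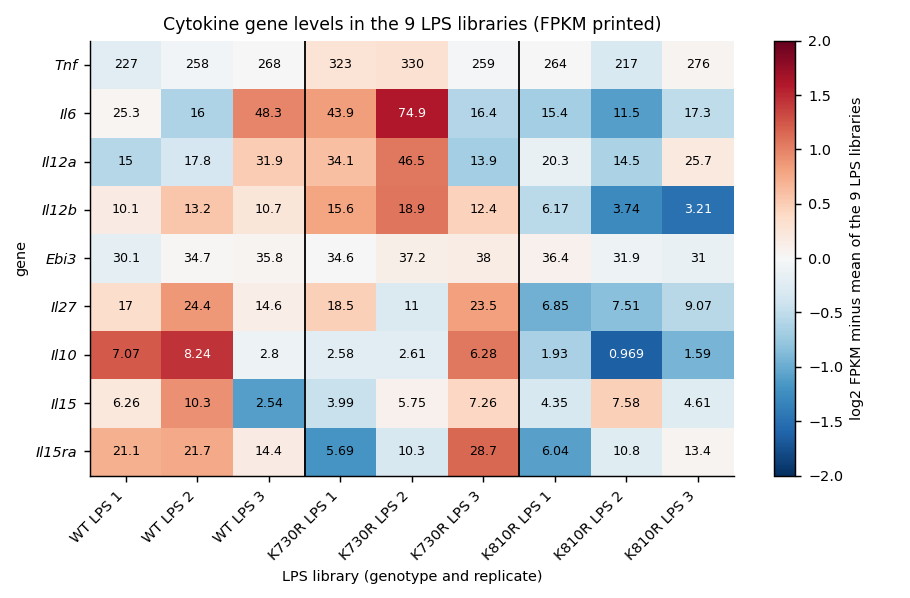
Level of the 9 genes (rows) in the 9 LPS libraries (columns), coloured by log2 FPKM minus the mean of the row, with the FPKM printed. In TLR4-WT and in TLR4-K730R the library with the lowest Il6 has the highest Il10, and the TLR4-K810R columns lie below the row mean for Il12b, Il27 and Il10.

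First exons, which mark where transcripts begin, were examined for the members with more than 1. Il12a (chr3:68690644-68698547 of GRCm38, plus strand) began after LPS mainly at 3 first exons, at 68691424 (the inner RefSeq start shown above), at 68693627 and at 68693993. The exon at 68691424 held 6.02, 9.98 and 20.7 FPKM in TLR4-WT, 17.9, 21.6 and 7.44 in TLR4-K730R, compared with 9.74, 0.907 and 14.6 in TLR4-K810R. The outermost start at 68690644 was listed in 1 library, TLR4-K810R replicate 2, at 6.31 FPKM, the library where the exon at 68691424 was lowest. The share of the exon at 68691424 overlapped between each mutant and TLR4-WT (exact permutation p = 0.8 for TLR4-K730R and 0.6 for TLR4-K810R, two-sided). The exon at 68693627 shares its inner boundary with no GENCODE transcript.

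Il15ra (chr2:11705290-11734317, plus strand) began mainly at 2 first exons, an outer one at 11705290 and an inner one at 11705712. After LPS the outer exon held 9.82, 6.67 and 3.72 FPKM in TLR4-WT, 1.09, 0.341 and 0.221 in TLR4-K730R, compared with 1.33, 2.14 and 2.85 in TLR4-K810R. The inner exon held 9.51, 12.6 and 9.3 FPKM in TLR4-WT, 4.5, 9.7 and 28.3 in TLR4-K730R, compared with 4.51, 7.57 and 8.76 in TLR4-K810R. The outer exon therefore made up 46.5%, 30.8% and 26% of the first-exon FPKM in TLR4-WT, 19.1%, 3.31% and 0.770% in TLR4-K730R, compared with 22.1%, 19.8% and 21.3% in TLR4-K810R. The shares of both mutants were below all TLR4-WT shares (two-sided exact permutation p = 0.1 each, the smallest possible). In control libraries, with at most 2.55 FPKM of Il15ra, the outer share ranged from 11.9% to 84%. A last exon of Il15ra was listed in 1 library, so its value rests on first exons.

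Il15 (chr8:82331632-82403222, minus strand) had 5 first exons, of which 2 begin at the same outermost base and differ in their inner end. The shorter of these, from 82402969 to 82403222, made up 49.5%, 78.6% and 59.5% of first-exon FPKM in control TLR4-WT libraries and 33.5%, 11.1% and 4.66% after LPS. TLR4-K730R control libraries held 71.8%, 72.2% and 69.8% and LPS libraries 44.2%, 18.4% and 38.6%. TLR4-K810R control libraries held 89.7%, 58.6% and 64.7% and LPS libraries 17.1%, 51.2% and 0%. Control was above LPS without overlap in each genotype (two-sided exact permutation p = 0.1 in each, the smallest possible). This does not hold for the start itself. Both exons that begin there together made up 50.4%, 87.0% and 59.5% in TLR4-WT control and 60.2%, 25.2% and 37.9% in LPS libraries, which overlapped (exact permutation p = 0.3). They overlapped in TLR4-K810R (p = 0.3, exact permutation) and not in TLR4-K730R (p = 0.1, exact permutation). This grouping was added after seeing the data. Exons at 82398553 and 82401645 were listed only in LPS libraries, at up to 0.766 and 1.84 FPKM. Tnf (chr17:35199381-35202007, minus strand), Il6 (chr5:30013114-30019981, plus), Il10 (chr1:131019845-131024974, plus), Il27 (chr7:126589010-126594941, minus) and Ebi3 (chr17:55952640-55957022, plus) each had 1 first exon, which matched an annotated one. Il12b (chr11:44400063-44414033, plus) had 1 start with 2 exon ends, of which the longer was listed in 1 library at 0.185 FPKM.

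**Figure D4:**
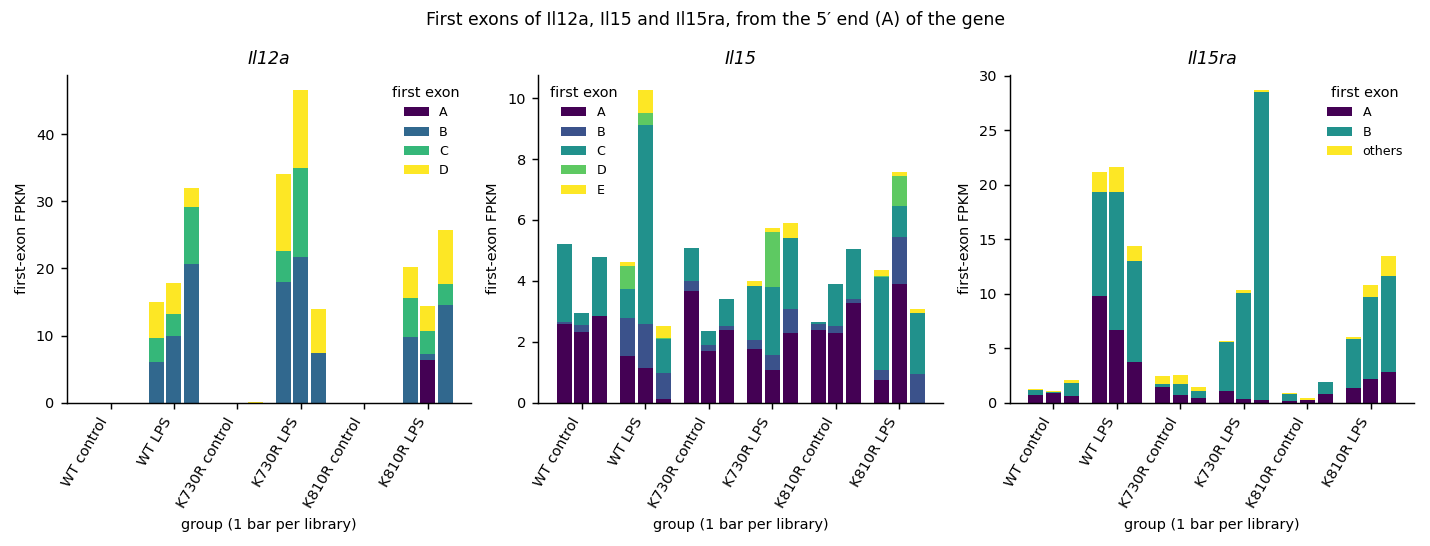
First-exon FPKM (y axis) of Il12a, Il15 and Il15ra, 1 stacked bar for each library in the 6 groups, with first exons lettered from the 5′ end of the gene and the minor Il15ra exons summed as others. Il12a bars appear with LPS, exons A and B of Il15 share a start and differ in their inner end, with A holding 0% to 51.2% after LPS, and the lowest segment of Il15ra (A) is large in LPS-treated TLR4-WT.

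Genes of the same pathways were taken from 3 lists, whose counts stand beside the shares of all genes called higher and lower given above. Of 17 receptor and signalling genes, 11 were tested. After LPS 3 rose and 2 fell in TLR4-WT (median difference of the list -0.19, of all genes -0.28). The counts were 2 and 2 for TLR4-K730R (median -0.13) and 3 and 1 for TLR4-K810R (median -0.07). Tnfrsf1b, the second TNF receptor, was at 296 ± 7.93 FPKM in control TLR4-WT and 809 ± 203 after LPS (SD, n = 3 each). Jak2, a kinase of cytokine receptors, rose there to 55.0 ± 9.47 FPKM from 6.44 ± 2.05. Il6ra, which encodes the ligand-binding IL-6 receptor chain, fell to 8.07 ± 1.07 FPKM from 17 ± 2.29. These 3 genes moved the same way and were called in all genotypes (adjusted p at most 2.84e-05, limma). The receptor genes Il12rb1, Il12rb2, Il23r, Il27ra and Il2rb did not reach 1 FPKM in 3 libraries. Nor did Socs3, whose median was 0 FPKM in every group. Its highest value after LPS was 31.0 FPKM in TLR4-WT and 39.7 in TLR4-K730R. Of the other calls in this list, 4 were lost in at least 1 other setting. These were Il6st (-1.82) and Stat3 (1.19) in TLR4-WT, Jak1 (-0.34) in TLR4-K730R and Il2rg (0.79) in TLR4-K810R. Their differences in those settings were -2.01 to -1.45 for Il6st, 0.94 to 1.18 for Stat3 and 0.68 to 0.79 for Il2rg, while Jak1 ranged from -0.34 to 0.06.

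Of 9 genes of TNF and IL-6 receptor processing and TNF receptor signalling, 8 were tested, and 5 rose in TLR4-WT with none called lower (median 0.91), 4 rose and 1 fell in TLR4-K730R (median 0.72), and 5 rose with none called lower in TLR4-K810R (median 0.92). Tnfaip3, which encodes the NF-κB feedback inhibitor A20, rose by 2.38 on the log2 scale for TLR4-WT, 2.33 for TLR4-K730R and 2.32 for TLR4-K810R. With the first-exon sum alone Tnfaip3 was not called in TLR4-WT, where the difference stayed at 2.36 (adjusted p = 0.0412), or in TLR4-K810R, where it was 0.66 (adjusted p = 0.588). Rhbdf2, needed for transport of the TNF-cleaving protease, rose by 1.65, 1.90 and 1.44. Adam17, that protease, was at 80.7 ± 6.38 FPKM in control and 61.6 ± 3.75 after LPS in TLR4-WT (adjusted p = 0.0317, not called), 83.9 ± 2.34 and 55.9 ± 12.1 in TLR4-K730R (adjusted p = 0.00195), and 50.7 ± 6.66 and 71.3 ± 2.85 in TLR4-K810R (adjusted p = 0.00941; SD, n = 3 each, limma). The interaction of Adam17 in TLR4-K810R was 0.87 ± 0.19 (adjusted p = 0.0564). Both Adam17 calls were lost under other settings. In TLR4-K730R it was not called with median-of-ratios scaling (-0.20, adjusted p = 0.333) or, at an unchanged -0.60, with only these groups in the fit (0.0253). In TLR4-K810R it was not called with library weights (0.0105), no filter (0.0109), no intensity trend (0.0134), only these groups (0.0158), or without control replicate 1 or 3 or any of the LPS replicates (0.0177 to 0.0411). Its difference there stayed at 0.43 to 0.52, compared with 0.49 as reported. The call of the kinase gene Map3k8 in TLR4-WT (0.64) was lost with only these groups or without 1 of 4 libraries, at 0.55 to 0.64.

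Of 13 transcription factors of these cytokine genes, 10 were tested. After LPS 5 rose and 1 fell in TLR4-WT (median 0.45), while TLR4-K730R had 4 and 1 (median 0.35) and TLR4-K810R 5 and 2 (median 0.79). Irf1, an activator of Il12 genes, rose by 2.31, 2.45 and 1.64 on the log2 scale, Nfkbiz, an NF-κB cofactor at Il6 and Il12b, by 2.31, 2.34 and 2.37, and Batf by 1.71, 1.87 and 1.67. With the last-exon sum alone Irf1 was not called in TLR4-K730R (0.45, adjusted p = 0.304) or TLR4-K810R (1.08, adjusted p = 0.0216). Maf, an activator of Il10, was called lower in TLR4-K810R (-0.70, adjusted p = 0.00975), a call lost in most other settings at differences of -0.77 to -0.44 (adjusted p 0.0104 to 0.114, limma). In TLR4-WT the calls of the NF-κB subunit genes Nfkb1 (0.80) and Rela (0.58) were lost in several settings, at 0.62 to 0.84 and 0.48 to 0.58. Bhlhe40, a repressor of Il10, fell by 1.63, 1.55 and 1.35 on the log2 scale in TLR4-WT, TLR4-K730R and TLR4-K810R. No gene of the 3 lists was called in any comparison between genotypes or in either interaction. These lists were chosen with earlier results of these data known.

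Other genes followed the members closely over the 18 libraries, mainly through the contrast of control and LPS. By Pearson's r of log2(FPKM + 1), Il6 was nearest to Calcr (0.991), Itgb8 (0.990) and the chemokine gene Ccl3 (0.990), of which Ccl3 went from 17.3 to 24.9 FPKM in control libraries to 159 to 602 in LPS libraries. Il12b was nearest to Slc1a2 (0.984), Shisa3 (0.983) and Dgat2 (0.978), and Il10 to Lacc1 (0.981), Gm4951 (0.977) and Slc28a2 (0.976).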

How the data were processed

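RNA-seq libraries of peritoneal macrophages were grouped by genotype and treatment from the sample labels. The authors deposited FPKM values per transcript event and library. Aligner, quantifier and test are not given in the sources used here. The submitters' processing notes name build hg18, a human build, but the coordinates match mouse GRCm38, and 14126 of 14138 Ensembl numbers were found in GENCODE M21. Events off the strand or span of their named gene were left out (5.99% of first-exon and last-exon FPKM). Since the values are not counts, limma 3.58.1 (R 4.3.3) with an intensity trend, pseudocount 1 and all 6 groups in one fit was used, after tests on simulated data. Python 3.11.15 with pandas 2.3.3 and scipy 1.17.1 gave the gene values and exact permutation tests. Depth is unknown.

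The named genes are the 10 members, Tlr4, the 3 pathway lists and, for Il6, Il12b and Il10, the 3 tested genes with the highest correlation. The members and lists were chosen with earlier results of these data known. Alternatives covered pseudocount, filter, scaling, variance trend, library weights, groups in the fit, replicate block, first-exon or last-exon sums alone, event position and each library left out. Ratios from first-exon or last-exon sums alone and the grouping of Il15 exons by start were added after seeing the data. Cebpb, Irf8 and Ripk1 had no value and are not analysed here.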

Additional observations from a re-analysis of the deposited data

How the results depend on the processing

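Counts of members called for LPS against control include the 5 that the filter admitted only through LPS libraries. They are no sign of stability and are not given here. The number of members called was 0 under every setting for both mutants against TLR4-WT in control macrophages, for TLR4-K730R against TLR4-WT after LPS and for the TLR4-K730R interaction. For TLR4-K810R against TLR4-WT after LPS, where 0 were called, library weights gave 2 (Il12b and Il10, with 366 of all genes called against 13), the last-exon sum alone, median-of-ratios scaling and no intensity trend gave 1 each (Il12b), and leaving out one library gave 0 to 2. For TLR4-K810R against TLR4-K730R, 1 became 0 with a pseudocount of 0.1 or only the compared groups, and leaving out one library gave 0 to 1. For the TLR4-K810R interaction the last-exon sum alone gave 1 (Il12b, again its difference after LPS). Over all genes, calls ranged from 0 to 366 for TLR4-K810R against TLR4-WT after LPS. For TLR4-K730R against TLR4-WT after LPS they ranged from 0 to 2 (0 as reported). They ranged from 0 to 36 for TLR4-K810R against TLR4-K730R (6 as reported). In control they ranged from 11 to 61 and from 27 to 218 for TLR4-K730R and TLR4-K810R against TLR4-WT (26 and 153). They ranged from 6 to 37 for the TLR4-K810R interaction (12) and from 2 to 6 for that of TLR4-K730R (4). The causes were not tested. Same-numbered libraries of different groups did not deviate together (45 pairs, r from -0.32 to 0.0993). Of 18 libraries, 0 correlated best with their own number. No shared signal was thus found, which cannot show that same-numbered libraries were unpaired. With the replicate block, 1 member was called for TLR4-K810R against TLR4-K730R and 0 for the other genotype comparisons and the interactions. Over all genes the block moved the calls from 13 to 3 for TLR4-K810R against TLR4-WT after LPS. For TLR4-K810R against TLR4-K730R they went from 6 to 4. In control they went from 26 to 11 for TLR4-K730R and from 153 to 107 for TLR4-K810R, each against TLR4-WT.

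Signs turned for differences that were not called and for Jak1. For TLR4-K810R against TLR4-WT after LPS, library weights gave 0.021 for Ebi3 and 0.13 for Il12a and median-of-ratios scaling gave -0.15 for Tnf, while leaving out one library gave -0.090 to 0.031 for Ebi3, -0.27 to 0.25 for Il12a, -0.51 to 0.33 for Il15 and -0.068 to 0.11 for Tnf. For TLR4-K730R against TLR4-WT after LPS, Il15 was 0.018 with the first-exon sum alone, 0.029 with median-of-ratios scaling and 0.0059 with a pseudocount of 0.1, and with one library left out -0.47 to 0.36 for Il15, -0.33 to 0.18 for Il27 and -0.0031 to 1.06 for Il6. The LPS difference of Il15 was -0.025 in TLR4-K810R with the last-exon sum alone and -0.049 to 0.79 in TLR4-WT with one library left out. Jak1 in TLR4-K730R was -0.34 after LPS (adjusted p = 0.00289, limma) and 0.061 with median-of-ratios scaling. Ratios between members kept their sign with first-exon or last-exon sums alone, where Il10 per Tnf could not be formed for TLR4-K810R with last exons because 1 library is listed at 0.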
